A study of Mus musculus with 11 samples.

Results

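The aryl hydrocarbon receptor pathway was followed through 8 genes in bulk RNA sequencing of sorted mouse epidermal cells. The set held the receptor Ahr, its partner Arnt, the receptor repressor Ahrr, the target genes Cyp1a1, Cyp1b1, Tiparp and Nqo1, and Nfe2l2, which encodes the antioxidant regulator NRF2. These 8 of 55536 Ensembl genes were named by symbol, and the set was chosen by the measured level of Ahr, which was higher in SCA-1+ and in tdT+ cells. The values of Ahr are therefore a description and carry no test.

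AHR is a ligand-activated transcription factor of the bHLH-PAS family. It rests in the cytoplasm with HSP90, enters the nucleus after binding dioxins, polycyclic aromatic hydrocarbons or tryptophan-derived ligands, and pairs with ARNT on xenobiotic response elements. In skin it is known in keratinocytes, in Langerhans cells and in the gamma delta T cells of the epidermis, which depend on it.

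Epidermal cells were released from dorsal skin with thermolysin and sorted by FACS from male CD4Cre R26-tdT mice on a C57Bl6/N background. All animals carried both transgenes, so that tdT (the red reporter tdTomato, at the R26 locus) marks cells in which Cre, driven by Cd4 regulatory sequence, has acted at any time in the cell or its ancestors. The sorted CD49f+CD34+ cells fell into 4 groups. There were 3 libraries of tdT+ SCA-1neg cells, 3 of tdTneg SCA-1neg cells, 3 of tdT+ SCA-1+ cells and 2 of tdTneg SCA-1+ cells. Each library held the cells of 2 mice, of 29 weeks for replicate 1 and of 32 weeks for replicates 2 and 3. No untreated or Cre-free group belonged to the design, and tdTneg cells of the same gate served as the comparison. Levels are given as normalized CPM, which are counts scaled to library size with TMM factors. A gene was called at an edgeR Benjamini-Hochberg adjusted p under 0.05 over 20307 genes and an absolute log2 fold change over 1.

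Between 17409131 and 46542177 counts per library fell on genes. Ly6a, the gene of SCA-1, followed the labels and was called higher in SCA-1+ cells. Of 10 bulge markers, 9 were called lower there (Krt15, Lhx2 and others). Cd34 was among these 9, although all groups were sorted as CD34+. A further row of the files, outside the Ensembl genes, held 133 to 307 CPM of raw totals in 5 tdT+ libraries. In the library labelled tdT+ SCA-1neg replicate 2 it held 2.05 CPM, beside 2.54 to 4.89 CPM in tdTneg libraries, so this library went against its label on that row.

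A group of 3 SCA-1neg libraries stood apart from the other 8. In tdT+ SCA-1neg replicates 1 and 2 and tdTneg SCA-1neg replicate 2, the summed level of 10 liver genes (Alb, Apoa1, Apoa2, Ttr, Serpina1a, Fabp1, Fgb, Tat, Hpd and Cyp2e1, listed after the values were seen) ranged from 7689 to 16330 normalized CPM. In the other 8 libraries it ranged from 5.35 to 64.1. Xist, the RNA of the inactive X chromosome of female cells, reached 211 to 1320 normalized CPM in the same 3 libraries and 0.4 to 1.27 in the others, although all animals were labelled male. Results are therefore given with and without these 3 libraries. Without them tdT+ SCA-1neg cells keep 1 library, which is assumed to vary like the other groups.

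Upstream sequence is shown for the repressor and for both cytochrome P450 members, because Ahrr and Cyp1b1 carry the calls described below and Cyp1a1 is the classical target of the receptor. The 250 bases before the RefSeq start on GRCm38.p6 are written 5′ to 3′ on the strand of the gene, at chr13:74292332-74292581 (minus strand) for Ahrr, chr9:57697363-57697612 (plus strand) for Cyp1a1 and chr17:79715062-79715311 (minus strand) for Cyp1b1. Capitals mark the core of the xenobiotic response element, searched as GCGTG and, on the other strand, CACGC.
Ahrr: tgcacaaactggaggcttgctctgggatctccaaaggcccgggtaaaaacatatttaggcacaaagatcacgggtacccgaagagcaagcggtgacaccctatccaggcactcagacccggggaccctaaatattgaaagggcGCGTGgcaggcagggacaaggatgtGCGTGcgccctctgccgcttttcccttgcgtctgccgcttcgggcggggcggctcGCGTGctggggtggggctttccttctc
Cyp1a1: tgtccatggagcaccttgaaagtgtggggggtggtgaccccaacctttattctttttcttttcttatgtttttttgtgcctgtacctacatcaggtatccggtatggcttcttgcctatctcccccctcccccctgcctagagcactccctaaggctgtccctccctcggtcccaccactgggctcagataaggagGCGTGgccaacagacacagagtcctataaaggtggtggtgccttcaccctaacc
Cyp1b1: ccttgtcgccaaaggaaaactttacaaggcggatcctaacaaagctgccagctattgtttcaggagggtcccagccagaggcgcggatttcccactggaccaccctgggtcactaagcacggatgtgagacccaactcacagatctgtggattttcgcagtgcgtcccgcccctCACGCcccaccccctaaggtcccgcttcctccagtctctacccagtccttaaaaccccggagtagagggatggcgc

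The Ahrr window held 3 core matches, and the Cyp1a1 and Cyp1b1 windows held 1 each. Of 32851 windows of the same kind, from 250 bases before to 50 after a start, 32.4% held at least 1 match and 3.91% held 3 or more. Arnt and Tiparp had 1 match and Nqo1 and Nfe2l2 had 0 in their windows, and Ahr was not among the RefSeq windows used here. The antioxidant core TGACNNNGC, searched on both strands, was in 12.4% of windows, with 2 matches at Arnt, 1 at Nfe2l2 and 0 at Nqo1. A match is a run of letters and not a measured binding site.

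**Figure D1:**
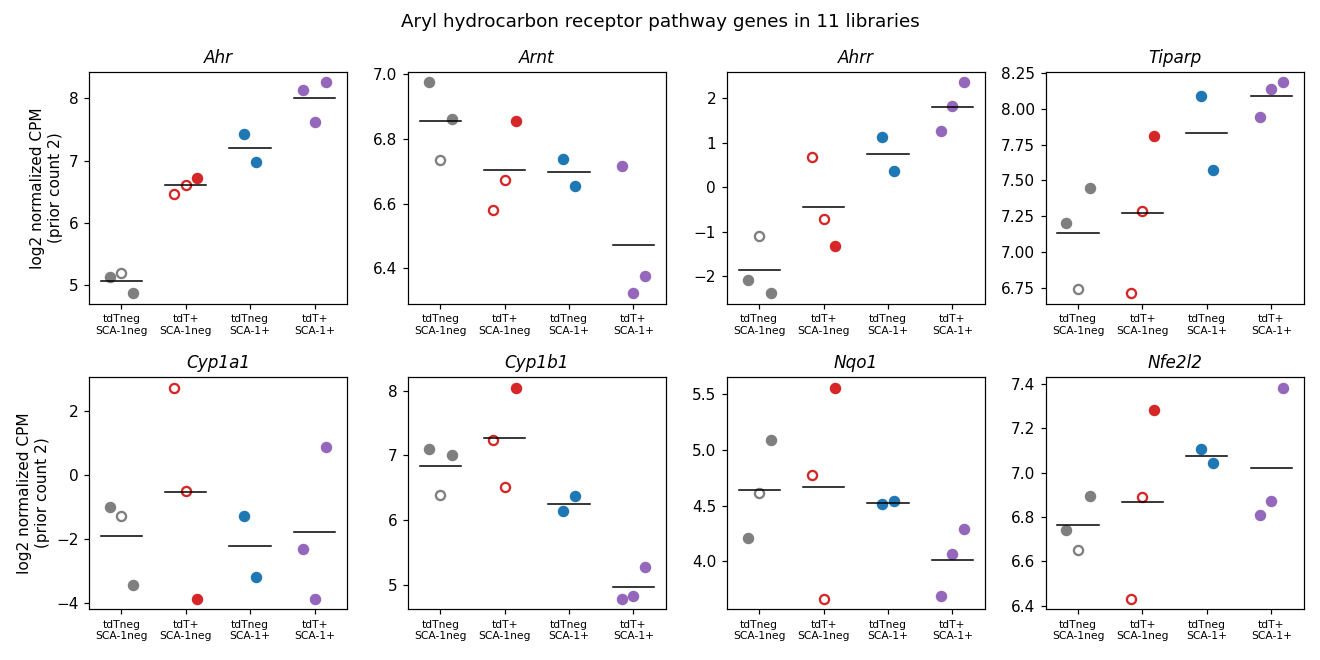
Level of each of the 8 genes in each library on the log2 normalized CPM scale with a prior count of 2 (vertical axis, a range of its own per gene) by sorted group (horizontal axis). Each point is 1 library, the bar is the group mean of 2 or 3 libraries, and open points are the 3 libraries high in liver genes. Ahr separates all 4 groups, Ahrr follows the same order of group means, and Cyp1b1 is lowest in tdT+ SCA-1+ cells.

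Ahr (chromosome 12, 35497974 to 35535038, minus strand, GRCm38) formed 4 steps. It stood at 34.9, 36.5 and 29.1 normalized CPM in the 3 tdTneg SCA-1neg libraries and at 88.3, 98.0 and 105 in the 3 tdT+ SCA-1neg libraries. It stood at 173 and 126 in the 2 tdTneg SCA-1+ libraries and at 281, 197 and 306 in the 3 tdT+ SCA-1+ libraries. No library of one group reached into the next, which follows in part from how the gene was chosen. Group means were 33.5 ± 3.89 (SD, n = 3), 97.2 ± 8.49 (n = 3), 149 ± 33.5 (n = 2) and 261 ± 57.3 (n = 3) normalized CPM in the same order. The fitted log2 fold change of SCA-1+ over SCA-1neg cells was 2.16 within tdTneg and 1.43 within tdT+ cells. That of tdT+ over tdTneg cells was 1.54 in SCA-1neg and 0.81 in SCA-1+ cells. These comparisons share groups, so they are not independent of one another. Without the 3 libraries high in liver genes the same 4 values were 2.27, 1.30, 1.72 and 0.74.

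Of the marker lists of other cell types and layers, the T cell and the suprabasal sums followed the order of Ahr in their group means. The summed level of 10 T cell genes (Ptprc, Cd3d, Cd3e, Cd3g, Cd2, Lck, Thy1, Trac, Trdc and Cd247) was 29.2 to 44.1 normalized CPM in tdTneg SCA-1neg, 90.3 to 121 in tdT+ SCA-1neg, 199.7 and 208.5 in tdTneg SCA-1+ and 556 to 1312 in tdT+ SCA-1+ libraries. All 10 had counts in every library, and all 10 were called higher in SCA-1+ than in SCA-1neg cells. Trdc, the constant region of the delta chain of the T cell receptor, rose from 0.159 to 1.55 in tdTneg SCA-1neg to 53.9 to 92.9 in tdT+ SCA-1+ libraries. Within tdT+ SCA-1+ cells the library with the highest T cell sum, replicate 2 at 1312, had the lowest Ahr of the 3, at 197. Markers of the suprabasal epidermis (Krt1, Krt10, Ivl, Lor, Sbsn and Krtdap) summed to 488 to 1698 normalized CPM in tdTneg SCA-1neg, 1543 to 4059 in tdT+ SCA-1neg, 3019 and 6957 in tdTneg SCA-1+ and 7088 to 9870 in tdT+ SCA-1+ libraries. All 6 had counts in every library, 3 were called higher in SCA-1+ cells over both states, and the sum ranked the libraries as Ahr did within both SCA-1+ groups but within neither SCA-1neg group. Markers of Langerhans cells (8 genes) summed to 133 to 258 normalized CPM in tdTneg SCA-1neg, 134 to 512 in tdT+ SCA-1neg, 793 to 942 in tdTneg SCA-1+ and 316 to 457 in tdT+ SCA-1+ libraries, with Itgax at 0 in 1 library. Endothelial markers (6 genes) summed to 1676 and 1789 in the tdTneg SCA-1+ libraries and to 5.13 to 441 in all others. The part of these cells in the Ahr levels was not tested, and in bulk samples fewer cells of a type and less RNA per cell cannot be told apart.

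**Figure D2:**
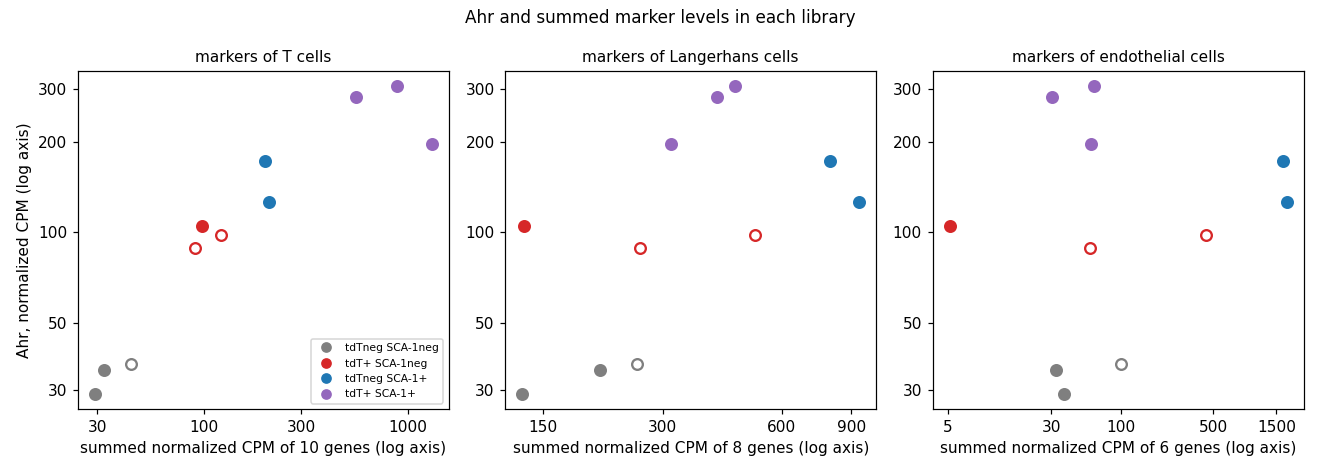
Ahr in normalized CPM (vertical, log axis) against the summed normalized CPM of marker lists for T cells, Langerhans cells and endothelial cells (horizontal, log axes). Each point is 1 of 11 libraries and open points are the 3 libraries high in liver genes. The T cell sum orders the 4 groups as Ahr does, from 29.2 to 1312, while the Langerhans and endothelial sums peak in tdTneg SCA-1+ libraries.

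Arnt (chromosome 3, 95434388 to 95497240, plus strand), the DNA-binding partner of AHR, stayed in a narrow range. It was at 126, 106 and 116 normalized CPM in tdTneg SCA-1neg and at 95.6, 102 and 116 in tdT+ SCA-1neg libraries. It was at 107 and 101 in tdTneg SCA-1+ and at 105, 80.0 and 83.0 in tdT+ SCA-1+ libraries. The groups overlapped in every comparison. The log2 difference between SCA-1+ and SCA-1neg cells was -0.19 (95% interval -0.43 to 0.04, edgeR adjusted p = 0.22), so a change of the size required for a call lay outside the interval. Per kilobase of exon, the ratio of Ahr to Arnt was 0.325 to 0.445 in tdTneg SCA-1neg, 1.18 to 1.25 in tdT+ SCA-1neg, 1.62 and 2.11 in tdTneg SCA-1+ and 3.20 to 4.79 in tdT+ SCA-1+ libraries. The receptor transcript was thus below that of its partner in the 3 tdTneg SCA-1neg libraries and above it in the other 8.

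Ahrr (chromosome 13, 74211118 to 74292331, minus strand) encodes a relative of AHR that competes for ARNT and is itself a target of the receptor. Its counts were low, from 5 to 98 per library. It was at 0.165, 0.397 and 0.122 normalized CPM in tdTneg SCA-1neg and at 1.54, 0.536 and 0.331 in tdT+ SCA-1neg libraries. It was at 2.12 and 1.22 in tdTneg SCA-1+ and at 2.32, 3.46 and 5.06 in tdT+ SCA-1+ libraries. The highest SCA-1neg value, 1.54, came from tdT+ replicate 1, 1 of the libraries high in liver genes, and it alone overlapped the SCA-1+ libraries.

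Over both tdT states Ahrr rose in SCA-1+ cells by a log2 fold change of 2.51 (SE 0.55, edgeR adjusted p = 0.0113). It was 1 of 2 members called among the 7 other than Ahr, where 11.6% of all genes were called (4.77% higher and 6.79% lower). Without the 3 libraries high in liver genes the value was 3.48 (edgeR adjusted p = 0.00435), with 8.74% of all genes called higher and 4.88% lower. The call was lost without tdTneg SCA-1+ replicate 1 (log2 fold change 2.27, edgeR adjusted p = 0.0647). Within tdT+ cells alone its libraries did not overlap and the log2 fold change was 2.16 (edgeR adjusted p = 0.0823). Within tdTneg cells they did not overlap either, at 2.86 (edgeR adjusted p = 0.07), and the latter passed without the 3 libraries (3.55, edgeR adjusted p = 0.0151, with 6.57% of all genes called higher). All genes whose libraries lay above without overlap made up 15.4% and 19.9% of those tested in these 2 comparisons. Between tdT+ and tdTneg cells Ahrr was not called, with log2 fold changes of 1.81 in SCA-1neg (95% interval 0.15 to 3.47, edgeR adjusted p = 0.56) and 1.11 in SCA-1+ cells (-0.70 to 2.92, edgeR adjusted p = 0.615). The value in SCA-1neg cells fell to 0.92 without tdT+ replicate 1 and to 1.18 without the 3 libraries high in liver genes. The T cell sums given above are also higher in the groups in which Ahrr was higher, and their part was not tested.

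Tiparp (chromosome 3, 65528410 to 65555518, plus strand), a mono-ADP-ribosyltransferase induced by AHR that limits its activity, was the most abundant member per length. It was at 147, 107 and 174 normalized CPM in tdTneg SCA-1neg and at 105, 156 and 224 in tdT+ SCA-1neg libraries. It was at 273 and 191 in tdTneg SCA-1+ and at 246, 282 and 291 in tdT+ SCA-1+ libraries. Within each tdT state the SCA-1+ libraries lay above the SCA-1neg libraries, as did those of 15.4% of genes within tdT+ and 19.9% within tdTneg cells, but across states they overlapped. Neither was called, with log2 fold changes of 0.76 (edgeR adjusted p = 0.0998) and 0.70 (edgeR adjusted p = 0.223). These 2 values were 0.27 and 0.58 without the 3 libraries high in liver genes. The log2 difference over both states was 0.73 (SE 0.21, edgeR adjusted p = 0.0351), under the fold required for a call. Without the 3 libraries high in liver genes it was 0.42 (edgeR adjusted p = 0.113). The gene overlaps a transcribed pseudogene on the other strand, and Ahr overlaps a long noncoding RNA gene on the other strand. Arnt overlaps a pseudogene and Nfe2l2 a small nuclear RNA gene, each on its own strand. The strand setting of the counting was not given in the sources used here.

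Cyp1a1 (chromosome 9, 57687928 to 57703824, plus strand), the enzyme most widely used to read AHR activation, was near the limit of detection. Its counts were 21, 13 and 1 in tdTneg SCA-1neg and 145, 12 and 0 in tdT+ SCA-1neg libraries. They were 11 and 1 in tdTneg SCA-1+ and 5, 0 and 34 in tdT+ SCA-1+ libraries. A count of 0 allows up to 0.165 normalized CPM in tdT+ SCA-1neg replicate 3 and up to 0.17 in tdT+ SCA-1+ replicate 2, for counting error only. The highest library, at 6.57 normalized CPM, was tdT+ SCA-1neg replicate 1, which also had the highest liver sum. Replicates of a group differed by more than the groups did, and no difference was detectable at this depth: over both states the log2 value was -1.18 (95% interval -4.39 to 2.02, edgeR adjusted p = 0.609). Its sign turned without that library (0.26).

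Cyp1b1 (chromosome 17, 79701537 to 79715061, minus strand), which oxidizes xenobiotics and steroids, gave the clearest contrast among the members tested. It was at 138, 83.7 and 129 normalized CPM in tdTneg SCA-1neg and at 151, 90.7 and 264 in tdT+ SCA-1neg libraries. It was at 70.3 and 82.9 in tdTneg SCA-1+ and at 27.6, 28.2 and 38.7 in tdT+ SCA-1+ libraries. All 5 SCA-1+ libraries lay below all 6 SCA-1neg libraries, and the 3 tdT+ SCA-1+ libraries lay below every other one. Genes below without overlap between populations made up 5.67% of those tested.

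Cyp1b1 fell in SCA-1+ cells over both tdT states, with a log2 fold change of -1.51 (SE 0.27, edgeR adjusted p = 0.00403). Within tdT+ cells the log2 fold change was -2.42 (SE 0.36, edgeR adjusted p = 0.0027), and it was the 1 of 7 members called there, where 8.45% of all genes were called and 5.54% were called lower. Genes below without overlap made up 15% of those tested within tdT+ cells. In the same comparison 8 of 10 bulge markers were called lower, with a median of -2.70, and the part of the cell mixture was not tested. This call held in each of the 11 fits that left out 1 library, with values from -2.72 to -1.94. The weakest, -1.94, came without tdT+ SCA-1neg replicate 3, the library highest in Cyp1b1. Without the 3 libraries high in liver genes the value was -3.09, in a fit with 4.64% of all genes called lower. That replicate was then the 1 left in its group, so this fit cannot show whether the call holds. Within tdTneg cells the SCA-1+ libraries also lay below for Cyp1b1, as they did for 26.4% of genes. The value for Cyp1b1 was -0.61 (95% interval -1.47 to 0.26, edgeR adjusted p = 0.41). There edgeR called 0 of 7 members, with 4.74% of all genes called. At an unadjusted p under 0.05 it found 2, Ahrr and Tiparp, beside 21.1% of all genes, while DESeq2 and limma voom each called 1, Ahrr.

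Between tdT+ and tdTneg SCA-1+ cells Cyp1b1 did not overlap and its log2 fold change was -1.28 (SE 0.38, edgeR adjusted p = 0.131), as 17.2% of genes lay below without overlap. Here 0 of 7 members and 2.31% of all genes were called by edgeR, and Cyp1b1 was the 1 member at an unadjusted p under 0.05, beside 14.6% of all genes. It was called by DESeq2 (adjusted p = 0.015), by limma voom (0.0424), and by edgeR with the replicate number as a block (log2 fold change -1.53, adjusted p = 0.0389) or without the 3 libraries high in liver genes (-1.35, adjusted p = 0.00196, with 4.69% of all genes called lower). In SCA-1neg cells the value was 0.53 (95% interval -0.23 to 1.29, edgeR adjusted p = 0.718). It was 0.049 without tdT+ SCA-1neg replicate 3 and 0.99 without the 3 libraries. With all libraries, edgeR, DESeq2 and limma voom called 0 of 7 members between tdT states of SCA-1neg cells, with 0.00985% of all genes called by edgeR. There 1 member, Ahrr, was at an unadjusted p under 0.05, beside 8.42% of all genes. The difference between the 2 effects of tdT was -1.81 (SE 0.51, edgeR adjusted p = 0.179). In that comparison edgeR called 0 of 7 members and 0.389% of all genes, with Cyp1b1 the 1 member at an unadjusted p under 0.05, beside 12.4% of all genes. DESeq2 called Cyp1b1 there (-1.93, adjusted p = 0.00971), and limma voom called 0 members. Without the 3 libraries the value was -2.34, with tdT+ SCA-1neg replicate 3, the library highest in Cyp1b1, the 1 left in its group. Leaving out that replicate alone took the value to -1.33. In the comparison of SCA-1+ cells by tdT, 4 of 10 bulge markers (Cd34, Lhx2, Tcf7l1 and Lgr5) were called lower in tdT+ cells. At an unadjusted edgeR p under 0.05, 8 of the 10 were lower, and the median log2 fold change of the 10 was -1.33. The sums of the 10 overlapped, at 8478 to 12650 normalized CPM in tdT+ and 10290 to 11720 in tdTneg libraries. Endothelial and Langerhans sums, given above, were lower in tdT+ cells, while T cell sums were higher, with 4 of 10 T cell markers called. The part of the cell mixture in this contrast was not tested.

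**Figure D3:**
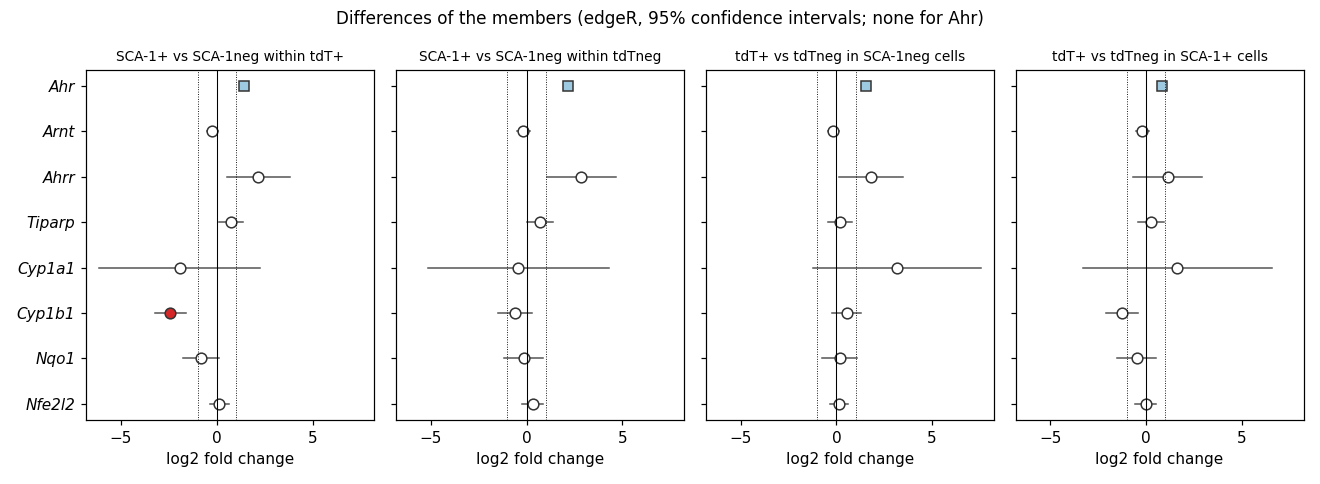
Fitted log2 fold changes (horizontal axis) of the 8 genes (vertical axis) in 4 comparisons, from edgeR over 11 libraries. Lines are 95% confidence intervals, filled circles mark called genes, dotted lines mark an absolute log2 fold change of 1, and the square for Ahr is a description without interval. Cyp1b1 within tdT+ cells, at -2.42, is the only filled point, and the widest intervals are those of Cyp1a1.

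Nqo1 (chromosome 8, 107388225 to 107403206, minus strand), a quinone reductase driven by both AHR and NRF2, was at 18.5, 24.5 and 34.1 normalized CPM in tdTneg SCA-1neg and at 27.3, 12.6 and 47.1 in tdT+ SCA-1neg libraries. It was at 22.8 and 23.2 in tdTneg SCA-1+ and at 12.8, 16.7 and 19.5 in tdT+ SCA-1+ libraries. The tdT+ SCA-1neg libraries spanned the widest range, and the lowest of them was the library labelled tdT+ SCA-1neg replicate 2, whose row outside the Ensembl genes was at the tdTneg level. Between SCA-1+ groups it lay lower in tdT+ cells without overlap (log2 fold change -0.49, 95% interval -1.51 to 0.52, edgeR adjusted p = 0.709), as did 17.2% of genes. Nqo1 was not called within tdT+ cells (log2 fold change -0.83, 95% interval -1.75 to 0.09, edgeR adjusted p = 0.207). Without the 3 libraries high in liver genes it was (-1.55, edgeR adjusted p = 0.0197), with 1 tdT+ SCA-1neg library left, replicate 3, which held the highest Nqo1 of all 11. Leaving out that library alone took the value within tdT+ cells to -0.29 (edgeR adjusted p = 0.629).

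Nfe2l2 (chromosome 2, 75675513 to 75704641, minus strand) was at 100 to 119 normalized CPM in tdTneg SCA-1neg, 86.3 to 156 in tdT+ SCA-1neg, 132 to 138 in tdTneg SCA-1+ and 112 to 167 in tdT+ SCA-1+ libraries. These ranges overlapped apart from those of the 2 tdTneg groups, where 19.9% of genes lay above without overlap in SCA-1+ cells. Over both states its log2 difference was 0.22 (95% interval -0.14 to 0.59, edgeR adjusted p = 0.371). Without the 3 libraries high in liver genes this difference was 0.023.

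**Figure D4:**
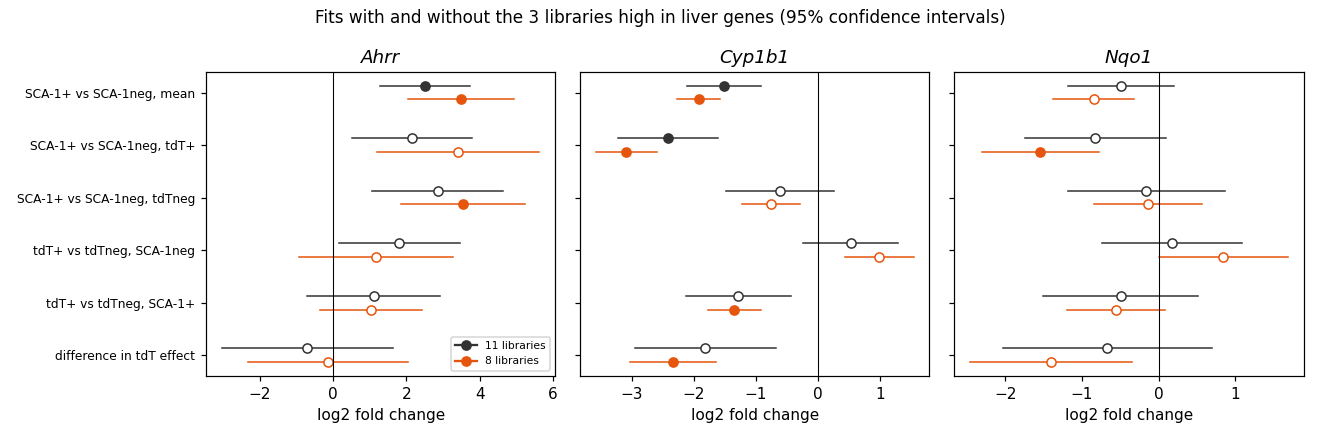
Log2 fold changes (horizontal axis) of Ahrr, Cyp1b1 and Nqo1 in the 6 comparisons (vertical axis) from 11 libraries (dark) and from the 8 left without the 3 libraries high in liver genes (orange). Lines are 95% confidence intervals and filled points are called genes. Leaving out the 3 libraries took Cyp1b1 from -1.28 to -1.35 between tdT+ and tdTneg SCA-1+ cells. In the difference in tdT effect it went from -1.81 to -2.34. The 8 libraries hold 1 of tdT+ SCA-1neg cells, replicate 3, which was the highest in Cyp1b1.

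Per kilobase of exon and over all 11 libraries, the mean level was 45.8 normalized CPM for Tiparp, 32.4 for Nfe2l2, 21.8 for Ahr, 17.2 for Cyp1b1, 15.2 for Nqo1, 12.9 for Arnt, 0.336 for Cyp1a1 and 0.166 for Ahrr. The mean of Cyp1a1 rested on tdT+ SCA-1neg replicate 1, and over the other 10 libraries it was 0.134, below Ahrr at 0.167. In tdT+ SCA-1+ cells the order was Tiparp (62.7 ± 5.45, SD, n = 3), Ahr (42.4 ± 9.29), Nfe2l2 (34.8 ± 7.98), Arnt (11.2 ± 1.72), Nqo1 (10.5 ± 2.16), Cyp1b1 (5.39 ± 1.07), Ahrr (0.383 ± 0.146) and Cyp1a1 (0.226 ± 0.351) per kilobase. Ahr and Nfe2l2, and Arnt and Nqo1, lay within the spread of their libraries there. In tdTneg SCA-1neg cells Ahr was at 5.44 ± 0.631 per kilobase (n = 3), below Cyp1b1 at 19.98 ± 4.95.

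The wider pathway was read from 8 lists of 79 genes, 75 of which passed the filter. In SCA-1+ against SCA-1neg cells over both states 12 of 75 were called, or 16%, beside 11.6% of all genes, with 6 higher and 6 lower. Of all genes called by edgeR, 41.2% were higher. DESeq2 called 21 of 75, or 28%, with 8 higher and 13 lower. It called 3540 of 55536 genes, taken without an expression filter, with 37% of them higher. Limma voom called 9 higher and 3 lower of 75, beside 2574 of 20307 genes, 46.2% of them higher. The balance of directions differed between tools, in the same order for the lists and for all genes. Without the 3 libraries high in liver genes the median of the pathway genes was 0.18, beside 0.079 over all genes. With all libraries these medians were 0.025 and -0.09. The list results below over both states stand beside 4.77% of all genes called higher, 6.79% called lower and the median of -0.09. Of 7 coactivators, 0 were called by edgeR, DESeq2 or limma voom, with 1 at an unadjusted edgeR p under 0.05, and the median was 0.10.

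Among relatives of the receptor, Arnt2, the paralog of Arnt known from brain and kidney, was the 1 of 6 called. It was at 1.20, 1.37 and 1.27 normalized CPM in tdTneg SCA-1neg and at 6.30, 2.79 and 1.82 in tdT+ SCA-1neg libraries. It was at 7.22 and 6.53 in tdTneg SCA-1+ and at 28.2, 51.4 and 38.4 in tdT+ SCA-1+ libraries. The SCA-1+ libraries lay above all SCA-1neg libraries, as did those of 5.1% of genes, and the 4 group means followed the order of Ahr and of the T cell sums, whose part was not tested. The log2 fold change was 2.93 over both states (SE 0.32, edgeR adjusted p = 0.000388), 3.43 within tdT+ (edgeR adjusted p = 0.00144, and 4.41 without the 3 libraries high in liver genes) and 2.42 within tdTneg cells (edgeR adjusted p = 0.0176). The last was lost without either tdTneg SCA-1+ library or without tdTneg SCA-1neg replicate 1 or 3 (edgeR adjusted p up to 0.125). In tdT+ over tdTneg SCA-1+ cells it was 2.52 (SE 0.50, edgeR adjusted p = 0.0312), the 1 called gene of 75 there (1.33%, beside 2.31% of all genes). DESeq2 called 4 of 74 pathway genes in this comparison (5.41%), beside 1230 of 55536 genes taken without an expression filter. Limma voom called 3 of 75 (4%), beside 976 of 20307 genes. The Arnt2 call was lost without any 1 of the 5 SCA-1+ libraries or tdTneg SCA-1neg replicate 1 or 3, with edgeR adjusted p up to 0.325. The value was 2.45 without the 3 libraries (edgeR adjusted p = 0.000997).

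Epas1, which encodes the hypoxia-inducible factor HIF-2 alpha, was not called over both states with all libraries (log2 fold change 0.90, SE 0.54, edgeR adjusted p = 0.266). It was at 97.7 to 150 normalized CPM in the 3 libraries high in liver genes and at 17.6 to 25.1 in the other 3 SCA-1neg libraries, 298 and 363 in tdTneg SCA-1+ and 42.4 to 60.5 in tdT+ SCA-1+ libraries. With those 3 left out it was called higher over both states (2.68, edgeR adjusted p = 4.83e-05) and lower in tdT+ than in tdTneg SCA-1+ cells (-2.83, edgeR adjusted p = 3.67e-05). The endothelial sums were highest in the same tdTneg SCA-1+ libraries, and their part was not tested.

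Of 7 tested genes in the list of other xenobiotic response targets, 2 were called, both lower in SCA-1+ cells, beside 6.79% of all genes called lower. The list median was -1.35. The median turned to 2.14 without the 3 libraries high in liver genes, beside 0.079 over all genes in that fit. Cyp1a2, Ugt1a6a and Ugt1a6b lay higher in all 3 of these libraries than in any other library. Cyp2s1, an extrahepatic cytochrome P450 inducible through AHR, fell by 1.35 on the log2 scale (SE 0.18, edgeR adjusted p = 0.00111), from 54.4 to 112 normalized CPM in SCA-1neg to 19.3 to 35.4 in SCA-1+ libraries. It also fell within tdT+ (-1.27, edgeR adjusted p = 0.00876) and within tdTneg cells (-1.42, edgeR adjusted p = 0.0196, up to 0.155 without either tdTneg SCA-1+ library or tdTneg SCA-1neg replicate 1 or 3), and over both states without the 3 libraries (-1.45, edgeR adjusted p = 0.000944). Cyp1a2, known as a liver enzyme, was at 30.4 to 50.1 normalized CPM in the 3 libraries high in liver genes and at 0 to 0.165 in the other 8. Its call (-8.47, edgeR adjusted p = 0.043) rested on those libraries, and without them the gene did not pass the filter. Aldh3a1, an aldehyde dehydrogenase of epithelia, was called within tdT+ cells (1.49, SE 0.36, edgeR adjusted p = 0.0257) and was at 145 to 231 normalized CPM in tdT+ SCA-1+ libraries against 41.9 to 118 in all others. That call was lost without the 3 libraries (0.73, edgeR adjusted p = 0.167).

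Of 12 tryptophan ligand enzymes and transporter subunits, Tdo2, Ido2, Kmo, Kynu, Aadat and Kyat3 lay higher in all 3 libraries high in liver genes than in any other library. Tdo2, the tryptophan dioxygenase of liver, was at 48.1 to 144 normalized CPM in those 3 and at 0.107 to 1.76 in the other 8. It was the 1 of 11 called over both states (-6.09, edgeR adjusted p = 0.0328), and without the 3 libraries the value was -0.81 (edgeR adjusted p = 0.517). The list median was -1.20 with all libraries and 0.83, over 9 genes, without these. Slc7a5, a subunit of the tryptophan-carrying transporter LAT1, rose within tdT+ cells (1.09, SE 0.25, edgeR adjusted p = 0.0212), and this was lost without the 3 libraries (0.85, edgeR adjusted p = 0.178).

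**Figure D5:**
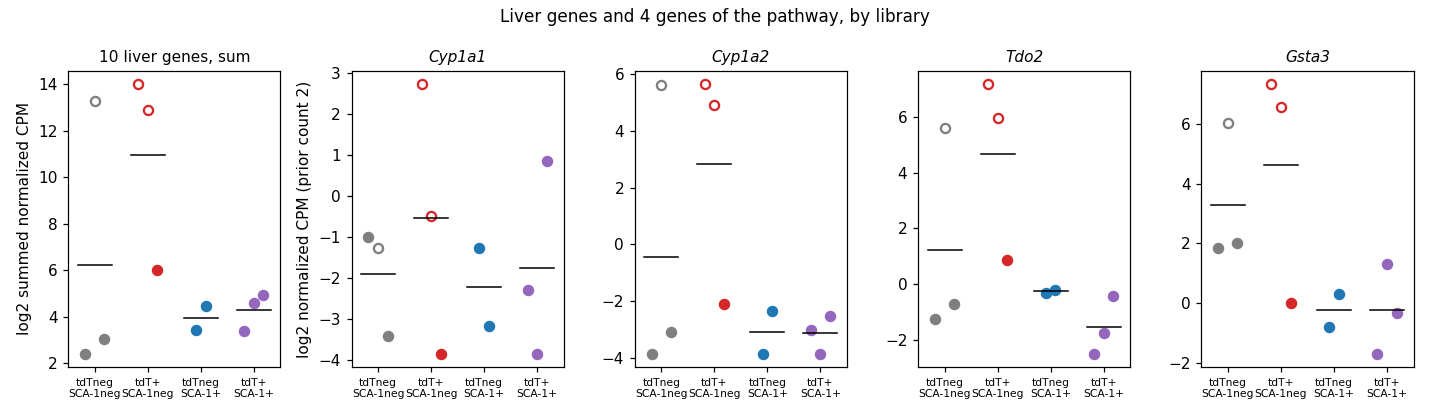
Summed level of 10 liver genes (left, log2 normalized CPM) and levels of Cyp1a1, Cyp1a2, Tdo2 and Gsta3 (log2 normalized CPM with a prior count of 2) by sorted group. Each point is 1 library, bars are group means, and open points are the 3 libraries high in liver genes. Cyp1a2, Tdo2 and Gsta3 are high in these 3 libraries alone, and Cyp1a1 is high in 1 of them.

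The NRF2 arm was mixed. Of 11 regulators of NRF2, Bach2, a repressor that competes for antioxidant response elements, was the 1 called (-1.14 over both states, SE 0.25, edgeR adjusted p = 0.0128), at 19.2 to 41.5 normalized CPM in SCA-1neg and 7.33 to 16.8 in SCA-1+ libraries. The call was lost without tdTneg SCA-1+ replicate 1 (edgeR adjusted p = 0.0777) or replicate 2 (0.0523). Of 21 NRF2 targets, 4 were called higher and 2 lower over both states, beside 4.77% and 6.79% of all genes, with a median of 0.10. Without the 3 libraries high in liver genes the median was 0.32, beside 0.079 over all genes.

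Among the rises, Abcc4, an efflux pump of conjugated anions, stood at 4.37 to 17.4 normalized CPM in SCA-1neg and 30.3 to 66.3 in SCA-1+ libraries (log2 fold change 2.68, SE 0.21, edgeR adjusted p = 0.000128). Gsta4, a glutathione transferase of lipid aldehydes, rose by 3.33 on the log2 scale (SE 0.67, edgeR adjusted p = 0.00752), and by 5.17 without the 3 libraries high in liver genes (edgeR adjusted p = 0.000556). G6pdx, which opens the pentose phosphate pathway, rose by 1.12 (SE 0.22, edgeR adjusted p = 0.00711), with a fold under the threshold without tdT+ SCA-1neg replicate 3 (0.97). The fourth was Abcc1, an efflux pump of glutathione conjugates, at 1.05 (edgeR adjusted p = 0.00142), with a fold under the threshold without replicate 1 of tdT+ (0.99) or of tdTneg SCA-1+ cells (0.95). In the other direction, Gclm, the modifier subunit of glutamate-cysteine ligase, fell by 1.30 (SE 0.23, edgeR adjusted p = 0.00446), from 62.2 to 137 normalized CPM in SCA-1neg to 22.3 to 55.4 in SCA-1+ libraries. Gclc, the catalytic subunit of the same enzyme, fell within tdTneg cells by 1.07 (edgeR adjusted p = 0.0147), and its fold was under the threshold without the 3 libraries (-0.89) or without tdTneg SCA-1neg replicate 2 (-0.94). The call was also lost without tdTneg SCA-1+ replicate 1 (edgeR adjusted p = 0.152) or 2 (0.0939). Gsta3 was at 66.1 to 161 normalized CPM in the 3 libraries high in liver genes and at 0.24 to 3.98 in the others, and its call (-5.60, edgeR adjusted p = 0.0247) was lost without them (-0.96, edgeR adjusted p = 0.4).

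Of 7 epidermal genes known to respond to AHR (Ovol1, Flg, Flg2, Hrnr, Lor, Ivl and Prdm1), 1 was called. Ovol1, a transcription factor of keratinocyte differentiation, rose in SCA-1+ cells by 1.17 (SE 0.22, edgeR adjusted p = 0.00537), from 19.7 to 44.2 normalized CPM in SCA-1neg to 51.1 to 96.5 in SCA-1+ libraries. The cornified envelope genes of the list spread widely. Flg, the gene of filaggrin, was at -1.60 (SE 1.30, edgeR adjusted p = 0.42), and the list median of 0.63 over both states stood beside -1.05 within tdT+ and 2.10 within tdTneg cells. These medians were 1.44, 0.95 and 1.94 without the 3 libraries high in liver genes, so that the one within tdT+ cells turned. Between tdT+ and tdTneg SCA-1neg cells edgeR and limma voom called 0 of 75 pathway genes and DESeq2 called 2, with 7 at an unadjusted edgeR p under 0.05 (9.33%, beside 8.42% of all genes).

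The genes whose pattern was most like that of Ahr were found by Pearson correlation of log2 normalized CPM over the 11 libraries, which share their sorting and may share pools of mice, and which differ in depth. They were Lax1 (r = 0.979), Smagp (0.978), Arrdc3 (0.977), Cd163l1 (0.977) and Klrb1b (0.976), of 20306 genes. Lax1 encodes an adaptor of lymphocyte receptors, and Cd163l1 and Klrb1b encode surface receptors known from gamma delta T cells and natural killer lineages. Cd163l1 was at 0.0976 to 0.211 normalized CPM in tdTneg SCA-1neg, 1.13 to 2.59 in tdT+ SCA-1neg, 4.87 and 6.33 in tdTneg SCA-1+ and 13.2 to 20.2 in tdT+ SCA-1+ libraries. Arrdc3, an arrestin-domain protein, was at 89.3 to 92.6, 141 to 183, 159 and 203, and 194 to 255 normalized CPM in the same order of groups. Most unlike Ahr were Oxtr, the oxytocin receptor (r = -0.977), Klhdc2 (-0.972) and Ampd3 (-0.968). In all, 313 genes reached r of at least 0.9. Among the members, r with Ahr was 0.904 for Ahrr, 0.743 for Tiparp, 0.474 for Nfe2l2, 0.054 for Cyp1a1, -0.396 for Nqo1, -0.662 for Cyp1b1 and -0.667 for Arnt. By Spearman correlation 1 of the 5 most similar genes was the same.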

How the data were processed

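RNA of sorted cells was sequenced in 11 libraries of 4 groups. The deposited files hold raw counts per gene, which the authors obtained by aligning reads to mm10 (STAR) and counting over Ensembl 96 genes (featureCounts). The strand setting is not given in the sources used here. All 55536 gene IDs matched GENCODE M21, which gave symbols, positions and exon lengths. 1 row outside these genes, at most 0.0307% of counts, stayed out of totals and tests.

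Counts were fitted in R 4.3.3 with edgeR 4.0.16 (TMM, filterByExpr, which kept 20307 genes and all 8 members, glmQLFit and glmQLFTest, 1 mean per group). DESeq2 1.42.0, the tool of the authors, and limma 3.58.1 were alternatives. The thresholds follow the study methods. The fit was tested on simulated data. Depth was 17409131 to 46542177 counts per library, and the median half-width of a 95% interval was 0.71 log2 units between populations and 1.02 between tdT states of SCA-1+ cells. A floor of 3 counts covers counting error only, and p-values measure the spread between pools of 2 mice. Figures used Python 3.11.15 and matplotlib 3.10.9, and promoter windows came from RefSeq (GRCm38.p6) for 7 of 8 members.

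The members and lists were chosen with earlier results of these data known. Named genes were the 8 members, the called genes of each pathway list (at most 3 rises and 3 falls), defining markers, and the 5 genes most and 3 least correlated with Ahr. The result of 1 pathway list is not reported here. Flg, Abcc1 and Epas1 were named after their values were seen. The alternatives were other tools, size factors and filters, no fold threshold, only the groups compared, the replicate number as a block, and omission of each library. The fit without 3 libraries and the list of liver genes were added after seeing the data. Same-numbered libraries were read as sharing a pool of 2 mice, from the study methods and the ages. Over 15 such pairs the correlation of deviations from group means had a median of 0.083 (-0.415 to 0.589), against -0.023 over 30 other pairs.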

Additional observations from a re-analysis of the deposited data

Results flagged for a closer look

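The row outside the Ensembl genes entered no comparison. It stood above the highest tdTneg library (4.89 CPM of raw totals) in 5 libraries labelled tdT+, at 133 CPM in tdT+ SCA-1neg replicate 1, 252 CPM in tdT+ SCA-1neg replicate 3, and 254, 224 and 307 CPM in tdT+ SCA-1+ replicates 1, 2 and 3. In the library labelled tdT+ SCA-1neg replicate 2 it was at 2.05 CPM. Groups of 2 or 3 libraries are too small for a search for single outlying libraries.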

How the results depend on the processing

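Among the 7 members other than Ahr, the number called in SCA-1+ against SCA-1neg cells over both tdT states was 2, and 1 when genes under 10 counts in any library were dropped, which removes Ahrr, and 3 by adjusted p alone (Tiparp added). Within tdT+ cells it was 1, and 2 by DESeq2 (Ahrr added) or without the 3 libraries high in liver genes (Nqo1 added). Within tdTneg cells it was 0, and 1 (Ahrr) by DESeq2, by limma voom and without the 3 libraries. Between tdT states of SCA-1+ cells it was 0, and 1 (Cyp1b1) by DESeq2, by limma voom, with a filter of 1 count in any library, with only the groups compared, with the replicate block and without the 3 libraries. For the difference in tdT effect it was 0, and 1 (Cyp1b1) by DESeq2, with a filter of 1 count and without the 3 libraries. Leaving out each library gave 1 to 2, 1 to 2, 0 to 1, 0 to 0, 0 to 1 and 0 to 0 members in the 6 comparisons, in the order of SCA-1 over both states, within tdT+, within tdTneg, tdT in SCA-1neg, tdT in SCA-1+ and the difference. The changes came without tdTneg SCA-1+ replicate 1 (Ahrr lost over both states), without tdT+ SCA-1neg replicate 1 (Ahrr), 2 (Nqo1) or 3 (Tiparp) within tdT+, without its replicate 1 or 3 within tdTneg (Ahrr), and without its replicate 3 for tdT in SCA-1+ cells (Cyp1b1). With the replicate block, which pairs libraries of the same number, the Cyp1b1 call between SCA-1+ cells was the 1 member call that changed. Where a library of tdTneg SCA-1+ cells was left out, the lone one was assumed to vary like the other groups.

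Directions turned only for log2 fold changes that were not called, and except where stated the cause was not tested. Without the 3 libraries high in liver genes Cyp1a1 turned to 3.52 over both states, 7.20 within tdT+, -5.80 for tdT in SCA-1neg cells and 7.36 for the difference, Nfe2l2 to -0.26 within tdT+ and Tiparp to -0.31 for the difference. With the replicate block Nqo1 turned to 0.14 within tdTneg, and Cyp1a1 to 0.16 and Tiparp to -0.066 for the difference. By limma voom Nqo1 turned to 0.002 within tdTneg and -0.29 for tdT in SCA-1neg cells, where Cyp1b1 turned to -0.088 and Tiparp to -0.054, and Arnt to 0.079 for the difference. Tiparp in the difference (0.058) was -0.059 by DESeq2, -0.058 with its size factors in edgeR, -0.012 with a filter of 1 count and -0.089 with one of 10 counts. Leaving out 1 library at a time turned Cyp1a1 over both states (-2.67 to 0.26), within tdT+ (-4.92 to 0.95), within tdTneg (-2.57 to 0.43), for tdT in SCA-1+ (-1.34 to 3.75) and for the difference (-4.49 to 1.38). The same held for Nfe2l2 within tdT+ (-0.067 to 0.37), for tdT in SCA-1neg (-0.088 to 0.33), in SCA-1+ (-0.23 to 0.076) and for the difference (-0.375 to 0.058), and for Nqo1 within tdTneg (-0.35 to 0.099) and for tdT in SCA-1neg cells (-0.36 to 0.53). It held for Tiparp for tdT in SCA-1neg (-0.13 to 0.41), in SCA-1+ (-0.045 to 0.51) and for the difference (-0.21 to 0.37), and in the difference for Arnt (-0.195 to 0.019) and Ahrr (-1.35 to 0.19).

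Counts over all genes moved more. Over both states 2347 genes were called, 3540 by DESeq2, 3917 by adjusted p alone and 1160 to 2510 without 1 library. Within tdT+ they were 1715, and 3423 by DESeq2. Within tdTneg they were 963, then 2162 by DESeq2, 2710 by limma voom, 1452 with only the groups compared, 55 to 1300 without 1 library and 1820 without the 3 libraries. For tdT in SCA-1neg cells they were 2, then 377 by DESeq2, 138 by limma voom, 5 with DESeq2 size factors, 166 and 20 with filters of 1 and 10 counts, 4 with the replicate block, 0 with only the groups compared (edgeR), 0 to 7 without 1 library and 34 without the 3. For tdT in SCA-1+ cells they were 470, then 1230 by DESeq2, 976 by limma voom, 885 with a filter of 1 count and with only the groups compared, 97 to 700 without 1 library and 1149 without the 3. For the difference they were 79, then 845 by DESeq2, 646 by limma voom, 568 and 263 with filters of 1 and 10 counts, 1 to 376 without 1 library and 218 without the 3. DESeq2 size factors moved the median of all genes by -0.118 in the difference and by less than 0.09 elsewhere. Of the 5 genes most like Ahr, 1 was shared by Spearman correlation. Depth limits Cyp1a1 and Ahrr most, at 0 to 145 and 5 to 98 counts per library.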
